A study of Mus musculus with 8 samples.

Results

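Macrophages lacking NRF2 were compared with wild-type macrophages after both had been exposed to dimethyl itaconate (DI), across all genes with enough counts to be tested. The comparison set the 2 knockout libraries with DI against the 2 wild-type libraries with DI, out of 8 in the series. Groups are as named in the columns of the count table. All 8 libraries were fitted together, so the untreated ones entered the estimate of scatter behind the p-values. All cells were bone marrow-derived macrophages of C57BL/6 mice, grown from marrow over 7 days in RPMI medium with M-CSF, the growth factor that drives marrow precursors into macrophages. The DI groups received 250 µM DI for 12 h before collection, and the remaining 4 libraries came from untreated wild-type and untreated knockout cells. The knockout mice, Nrf2_KO in the genotype label and Nrf2-/- in the protocols, came from the Jackson Laboratory, and the labels name no transgene or Cre and do not state whether the wild-type mice were littermates. The treatment tag of the labels reads Demethyl Itaconate where the design text reads DimethylItaconate, and both were taken as the same agent. The question set by the series title is how electrophilic stress from DI bears on inflammatory responses that depend on IκBζ, the product of Nfkbiz. The genotype comparison shows which transcripts of DI-exposed cells differ when NRF2 is missing.

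NRF2, encoded by Nfe2l2, is a transcription factor that binds antioxidant response elements together with small MAF proteins. In resting cells KEAP1 holds NRF2 for ubiquitination by a CUL3 ligase, and electrophiles that modify cysteines of KEAP1 let NRF2 accumulate. Its known targets make glutathione, regenerate thioredoxin, supply NADPH, reduce quinones, store iron and export conjugates. DI is a membrane-permeable, electrophilic ester of itaconate, the metabolite that activated macrophages make with the enzyme encoded by Acod1.

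The targeted gene was read first. Nfe2l2 (ENSMUSG00000015839, minus strand of chromosome 2, 75675513 to 75704641, mm10) had 299 and 416 CPM in wild-type cells with DI and 67.7 and 88.1 CPM in knockout cells with DI. CPM stands for counts brought to a common library total, here with library sizes scaled by the TMM method. The difference, knockout minus wild type, was -2.20 ± 0.33 on the log2 scale (edgeR adjusted p = 0.00078), and the groups did not overlap. Here and throughout, ± gives an approximate standard error with 2 libraries per group. It is the size of the log2 value divided by the square root of the test's F value. The library counts reads near transcript 3′ ends, so reads that remain in the knockout can come from a part of the gene outside the deletion, and they check the labels only in part. Total counts of the 4 DI libraries ranged from 6739038 to 11391531. Nothing in the labels tells whether replicates were separate mice or separate dishes, so the p-values capture only the scatter between libraries, and that scatter may be technical. Libraries of a group correlated across genes at 0.980 in the knockout and 0.979 in the wild type with DI, on the log2 scale.

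Defining macrophage markers were present in all 4 DI libraries. Csf1r, the M-CSF receptor, ranged from 159 to 322 CPM and Lyz2, the myeloid lysozyme, from 1421 to 2352 CPM. Defining markers of other cells ranged from absent to clearly present. The erythroid genes Hbb-bs and Alas2 had no count, and Ly6g, Mpo, Xcr1 and Cd3e stayed below 1 CPM. The neutrophil genes S100a8, S100a9 and Ngp ranged from 66.7 to 138, 105 to 191 and 19.5 to 23.5 CPM. The stromal gene Col1a2 ranged from 24.6 to 63.8 CPM. Of all genes tested, 11.4% were higher in the knockout with DI and 9.74% lower, the shares beside which the marker counts here stand. The summed level of 14 neutrophil markers was 642 and 808 CPM in the wild type and 298 and 350.3 CPM in the knockout, with 2 of 11 tested lower and none higher. The count of 2 fell to 1 without knockout untreated replicate 1 or 2, knockout DI replicate 1 or 2, or wild-type DI replicate 2. Most of the difference in the sum came from 1 gene of the list, Mmp8. It had 377 and 472 CPM in the wild type and 44.5 and 36.2 CPM in the knockout. S100a8 had 110 and 138 CPM in the wild type and 82.2 and 66.7 CPM in the knockout. For S100a9 the genotypes overlapped, at 105 and 138 CPM against 118 and 191 CPM. Stromal markers summed to 193 and 209.6 CPM in the wild type and to 66.0 and 76.7 CPM in the knockout, with 6 of 10 tested lower and none higher. In untreated cells the stromal sum was also lower in the knockout, at 69.3 and 75.2 CPM against 152 and 194 CPM. Ppbp and Pf4, which megakaryocytes express and macrophages can express, summed with the other erythroid and megakaryocyte markers to 740 and 709 CPM in the wild type and 507 and 357 CPM in the knockout. Of the other lists, 1 of 5 tested dendritic cell markers was higher (Clec9a), and none of 3 lymphocyte and 2 mast cell and basophil markers was called. The Clec9a call was lost without either untreated wild-type library, knockout DI replicate 1 or either wild-type DI library, and a mast cell marker was called without either untreated wild-type library. Both Ppbp and Pf4 were called lower, 1 of them without any single library other than knockout DI replicate 2 and wild-type DI replicate 2, and neither without one of those. The sums of these lists stayed between 2.67 and 11.1 CPM for dendritic cells, lymphocytes and mast cells. The part of these other cells in the results below was not tested. In bulk RNA, fewer cells of a type and less RNA per cell cannot be told apart.

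Of 11079 genes tested, 2345 differed between the genotypes in DI at an edgeR adjusted p under 0.05, which is 21.2%. Among them 1266 were higher in the knockout (11.4%) and 1079 were lower (9.74%). Each list's counts, above and below, stand beside these shares. The median log2 difference was 1.22 among the genes higher in the knockout and -1.16 among those lower, against 0.01 over all tested genes. The decreases reached further: 118 genes were lower by more than 8-fold and 52 were higher by that much, and 57 against 19 passed 16-fold. At 2-fold the order was the opposite, with 856 genes higher and 667 lower. In all 2345 called genes the knockout and wild-type libraries did not overlap, which was so for 60.6% of all tested genes. Without wild-type DI replicate 1 the counts were 654 higher and 744 lower, 840 and 757 without wild-type DI replicate 2, and without knockout DI replicate 1 they were 688 and 520. Genes called in every one of the 8 fits that each left out 1 library numbered 780, with 377 higher and 403 lower. With upper-quartile scaling in place of TMM the split moved to 1091 higher and 1254 lower, so the majority direction of the calls depended on the scaling.

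**Figure D1:**
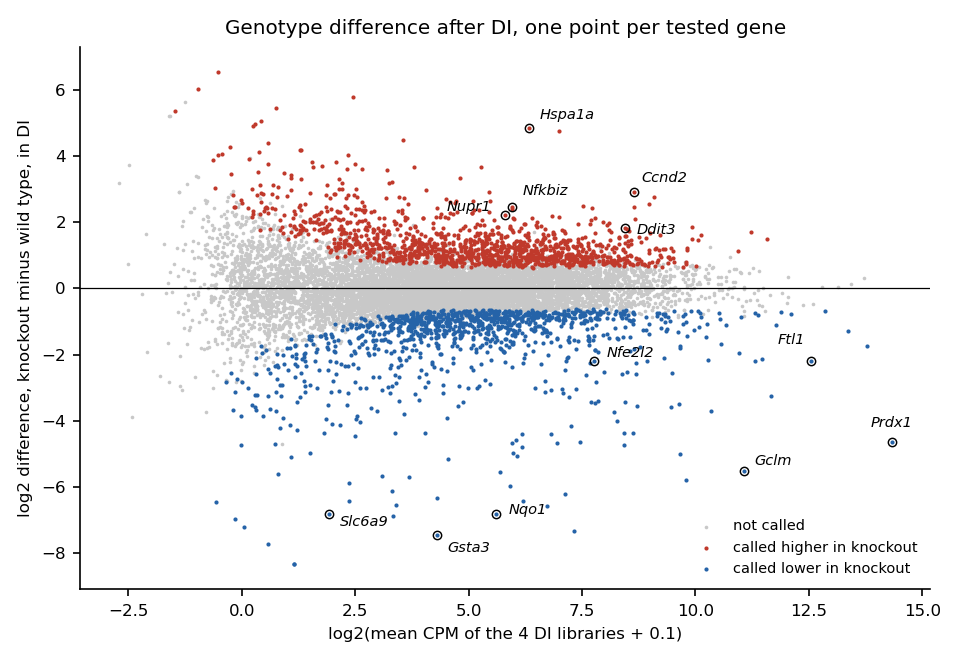
Log2 difference between knockout and wild type in DI (vertical axis) against the log2 mean CPM of the 4 DI libraries with 0.1 added (horizontal axis), 1 point per tested gene, with the 1266 genes called higher in red and the 1079 called lower in blue. The decreases extend to abundant transcripts such as Prdx1 and Gclm, while Hspa1a stands out among the increases.

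The transcripts that were lower in the knockout made up a large share of the RNA of DI-exposed wild-type cells. The 1079 genes held 28.8% of the CPM in both wild-type DI libraries, against 9.62% and 10.1% in the knockout DI libraries. The 1266 genes higher in the knockout held 7.17% and 7.76% in the wild type and 17.0% and 16.2% in the knockout. The groups were defined by this difference, so these shares describe its weight and test nothing. Prdx1, a thiol peroxidase that removes peroxides, had the largest decrease in CPM. It stood at 40749 and 38283 CPM in the wild type and at 1739 and 1438 CPM in the knockout.

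Glutathione is the main low-molecular-weight thiol of cells and conjugates electrophiles such as DI. Of 11 tested genes for glutathione synthesis and cystine uptake, 6 were lower in the knockout and 1 was higher, with a median of -3.54. Gclm, the modifier subunit of the rate-limiting glutamate-cysteine ligase, had 4139.8 and 4286 CPM in wild-type cells with DI and 91.4 and 90.2 CPM in knockout cells with DI. Its difference was -5.54 ± 0.25 (edgeR adjusted p = 1.4e-07), and no level in the knockout came near the wild type. Gclc, the catalytic subunit of the same ligase, fell from 1220.1 and 1891 CPM to 50.2 and 46.6 CPM, a difference of -5.01 ± 0.28 (edgeR adjusted p = 5.8e-07). Slc7a11, the transport subunit of the cystine-glutamate exchanger, had 131 and 129 CPM in the wild type and 3.95 and 3.85 CPM in the knockout, a difference of -5.06 ± 0.32 (edgeR adjusted p = 1e-06). Its partner chain Slc3a2, which also serves other amino acid transporters, was not called at -0.44. Gss, the glutathione synthetase, differed by -3.54 ± 0.25 (edgeR adjusted p = 2.1e-06) and Ggt5, a gamma-glutamyltransferase that cleaves extracellular glutathione conjugates, by -6.14 ± 0.50 (edgeR adjusted p = 6.9e-06). The member that was higher was Chac1, an enzyme that degrades glutathione, at 5.97 and 9.69 CPM in the wild type and 19.7 and 22.3 CPM in the knockout (1.40 ± 0.32, edgeR adjusted p = 0.0095). Without wild-type DI replicate 1 Chac1 was not called, which left 0 members higher.

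The stretch of DNA just before a gene's start was read for motifs that NRF2 is known to bind. RefSeq promoters of build GRCm38.p6, each running from 250 bases before the start of a gene to 50 after it, matched 8905 of the 11079 tested genes. The antioxidant response element was searched as TGACNNNGC on both strands. It occurred in 17.0% of the 8905 promoters, and in 42 of the 185 promoters (22.7%) found for the 227 genes lower by more than 4-fold. Of those 227 genes, the ones without an entry were not used here. The sequences of 4 genes with large decreases are shown, chosen because they hold a match. Nqo1, Slc7a11, Gss, Cat, Cbr3 and Taldo1, also lower by more than 4-fold, had no match in their promoters. Each sequence ends at the base before the start and is written 5′ to 3′ along the gene's strand, with the match in capitals. Gclm is at chr3:122245307-122245556 on the plus strand with the match on the opposite strand 134 bases before the start, and Prdx1 at chr4:116685349-116685598 on the plus strand with the match on the opposite strand at 133. Procr is at chr2:155750967-155751216 on the plus strand with the match on the gene's own strand at 154, and Gsta3 at chr1:21240335-21240584 on the plus strand with the match on its own strand at 121.
Gclm: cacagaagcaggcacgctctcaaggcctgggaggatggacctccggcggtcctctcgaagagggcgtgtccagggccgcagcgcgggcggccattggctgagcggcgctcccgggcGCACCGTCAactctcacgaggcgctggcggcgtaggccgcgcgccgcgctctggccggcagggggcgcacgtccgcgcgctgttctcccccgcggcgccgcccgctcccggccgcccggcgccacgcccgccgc
Prdx1: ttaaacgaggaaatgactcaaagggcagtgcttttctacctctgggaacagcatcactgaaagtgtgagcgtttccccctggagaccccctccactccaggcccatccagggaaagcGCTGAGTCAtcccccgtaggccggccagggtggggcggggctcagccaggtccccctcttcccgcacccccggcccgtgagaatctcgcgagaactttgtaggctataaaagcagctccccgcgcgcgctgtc
Procr: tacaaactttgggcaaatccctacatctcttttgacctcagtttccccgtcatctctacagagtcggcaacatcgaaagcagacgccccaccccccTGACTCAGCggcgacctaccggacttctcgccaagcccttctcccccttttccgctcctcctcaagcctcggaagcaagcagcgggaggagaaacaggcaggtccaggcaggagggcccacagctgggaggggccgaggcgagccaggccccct
Gsta3: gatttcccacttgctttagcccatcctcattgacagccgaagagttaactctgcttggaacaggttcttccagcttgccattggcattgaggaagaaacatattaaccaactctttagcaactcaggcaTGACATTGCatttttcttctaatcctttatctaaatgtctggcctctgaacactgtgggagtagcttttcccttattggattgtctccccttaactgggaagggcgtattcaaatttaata
A match gives the letters only, and whether a factor binds there was not measured. The antioxidant response element letters occurred in 19.7% of the promoters found for all genes lower in the knockout. Among those found for all genes higher in it the share was 18.3%. For genes higher by more than 4-fold it was 14.8%, of 149 promoters. Promoters were found for 79.8% of the lower and 78.8% of the higher genes, against 80.4% of all tested genes.

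Glutathione S-transferases join glutathione to electrophiles. Of 15 tested, 7 were lower in the knockout and none was higher, with a median of -1.18. Gsta3 showed the largest decrease among the named genes, with 234 and 445 counts in the wild-type libraries and 4 and 0 in the knockout libraries, and a difference of -7.47 ± 0.54 (edgeR adjusted p = 5.5e-06). Gstm1 went from 119 and 160.4 CPM to 6.08 and 4.05 CPM and Mgst1, a membrane-bound member, from 130.4 and 124 CPM to 3.63 and 6.89 CPM. The differences were -4.78 ± 0.32 and -4.59 ± 0.39 (edgeR adjusted p = 1.6e-06 and 9.4e-06). Gsto1 differed by -1.49 ± 0.25. The transferases of a class resemble each other, so reads of close copies may have been split or dropped in counting, and the values of single members are uncertain to that extent. Gstm5 was not called, at -1.18.

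Thioredoxin and peroxiredoxins reduce oxidized protein thiols and peroxides. Of 18 tested members of the thioredoxin, peroxiredoxin and catalase list, 10 were lower and 1 was higher, with a median of -0.74. Without knockout DI replicate 1, 6 members were lower. Prdx1 differed by -4.64 ± 0.26 (edgeR adjusted p = 5.8e-07). Cat, the peroxisomal catalase, had 686 and 639.7 CPM in the wild type and 24.1 and 25.2 CPM in the knockout, a difference of -4.75 ± 0.28 (edgeR adjusted p = 9e-07). Srxn1, sulfiredoxin, which restores overoxidized peroxiredoxins, went from 582 and 578 CPM to 44.7 and 26.6 CPM. Prdx6, which reduces lipid peroxides, went from 188 and 169 CPM to 28.1 and 23.3 CPM. Both were called, at -4.02 ± 0.28 and -2.80 ± 0.23. The mitochondrial Txn2 and the endoplasmic reticulum member Prdx4 were not called, at -0.55 and -0.55. The member that was higher, Sesn1, encodes a sestrin and had 6.44 and 6.24 CPM in the wild type and 17.5 and 18.7 CPM in the knockout (1.52 ± 0.30, edgeR adjusted p = 0.0046).

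Enzymes that detoxify quinones, carbonyls and epoxides were lower in 11 of 19 tested and higher in none, with a median of -1.40. Nqo1, the quinone reductase used as a standard readout of NRF2, had 85.1 and 106 CPM in wild-type cells with DI and 1.28 and 0.405 CPM in knockout cells with DI. The difference was -6.82 ± 0.40 (edgeR adjusted p = 1.1e-06), and the knockout held 12 and 4 counts. Cbr3, a carbonyl reductase, differed by -4.69 ± 0.35 (edgeR adjusted p = 3.5e-06). Ptgr1, which reduces unsaturated carbonyls including those of prostaglandins, went from 403 and 268 CPM to 13.7 and 13.1 CPM. Esd, an esterase that completes the glutathione-dependent removal of formaldehyde, went from 1231 and 1387 CPM to 96.4 and 121 CPM. These differences were -4.65 ± 0.29 and -3.59 ± 0.24. Ugt1a6a and Ugdh, of the glucuronidation branch, were not called at -1.08 and -0.55.

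The reductases above draw on NADPH. Of 13 tested genes for NADPH production and the pentose phosphate pathway, 6 were lower and none was higher, with a median of -0.83. G6pdx, which opens the oxidative branch, had 245 and 295 CPM in the wild type and 26.5 and 29.1 CPM in the knockout (-3.28 ± 0.24, edgeR adjusted p = 3.4e-06). Pgd, the next dehydrogenase of that branch, went from 628 and 655 CPM to 58.9 and 60.5 CPM (-3.42 ± 0.23, edgeR adjusted p = 1.6e-06). Taldo1, a transaldolase of the non-oxidative branch, went from 1613 and 1312 CPM to 142 and 117 CPM (-3.50 ± 0.25, edgeR adjusted p = 2.5e-06). Both branches therefore held members that were lower, along with the cytosolic isocitrate dehydrogenase Idh1 at -2.28 ± 0.22. Mthfd1, of folate metabolism, and Rpia, a pentose isomerase, were not called at -0.83 and -0.39.

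Genes for heme breakdown and for iron storage and transport were lower in 8 of 14 tested and higher in none, with a median of -1.70. Slc40a1, ferroportin, the exporter of iron, had 643 and 666 CPM in the wild type and 37.3 and 26.4 CPM in the knockout (-4.36 ± 0.33, edgeR adjusted p = 4e-06). Blvrb, a biliverdin reductase, differed by -3.48 ± 0.25 and Slc48a1, which moves heme out of the phagolysosome, by -3.44 ± 0.26. Slc11a1, the phagosomal metal transporter NRAMP1, differed by -3.05 ± 0.23. Ferritin carried the most RNA of this list: Fth1, the heavy chain, had 20312 and 23234 CPM in the wild type and 6155 and 7009 CPM in the knockout (-1.73 ± 0.23, edgeR adjusted p = 0.00034). Ftl1, the light chain, had 9088 and 10487 CPM and 1924 and 2338 CPM (-2.20 ± 0.22, edgeR adjusted p = 4.5e-05). Ferritin genes have many processed pseudogene copies, so some of their reads may have been assigned elsewhere or dropped. Hmox1, heme oxygenase 1, a long-known NRF2 target, went from 275 and 238 CPM to 63.5 and 81.9 CPM (-1.82 ± 0.24, edgeR adjusted p = 0.00037). Its level in the knockout with DI stood above the 15.4 and 16.4 CPM of untreated knockout cells. Slc11a2, the endosomal iron transporter DMT1, was not called at -0.45.

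Among 7 tested efflux transporters, 4 were lower and 2 were higher, with a median of -1.12. Abcc1, the exporter of glutathione conjugates called MRP1, had 377 and 407 CPM in the wild type and 70.6 and 38.9 CPM in the knockout (-2.84 ± 0.34, edgeR adjusted p = 0.00017). Abcc4 and Abcc3 of the same family differed by -2.21 ± 0.32 and -1.45 ± 0.24 (edgeR adjusted p = 0.00064 and 0.0014). The higher members were the P-glycoprotein genes Abcb1a and Abcb1b, at 1.81 and 0.84. Neither was called without wild-type DI replicate 2, and Abcb1a alone was called without either untreated knockout library, knockout DI replicate 1 or wild-type DI replicate 1. The breast cancer resistance protein gene Abcg2 was not called, at 0.30.

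Regulators and partners of NRF2 set how much of the factor reaches its targets. Of 16 tested regulators and partners, Nfe2l2 included, 6 were lower and 1 was higher, with a median of -0.30. The count of 6 fell to 3 without knockout untreated replicate 1 or 2, knockout DI replicate 1 or wild-type DI replicate 1, to 2 without knockout DI replicate 2, and to 3 after a trend with A-rich sequence (below) was removed. Mafg, a small MAF partner, had 567 and 787 CPM in the wild type and 279 and 291 CPM in the knockout (-1.25 ± 0.24, edgeR adjusted p = 0.0036). Keap1, the sensor, had 215 and 398 CPM in the wild type and 174 and 149 CPM in the knockout (-0.93 ± 0.28, edgeR adjusted p = 0.034). It was not called with the 4 DI libraries alone (edgeR adjusted p = 0.083) or after the A-rich trend was removed (edgeR adjusted p = 0.11). The wild-type libraries differed from each other more than the lower one differed from the knockout, and without wild-type DI replicate 2 the difference was -0.43 (edgeR adjusted p = 0.27). The Keap1 call was also lost without knockout DI replicate 1 (edgeR adjusted p = 0.087) or 2 (0.14) and without knockout untreated replicate 1 (0.053) or 2 (0.055). Nfe2l1, which encodes the related factor NRF1, was higher in the knockout, at 491 and 414 CPM against 181 and 178 CPM (1.34 ± 0.21, edgeR adjusted p = 0.0012). The ligase scaffold Cul3 was not called, at 0.65.

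**Figure D2:**
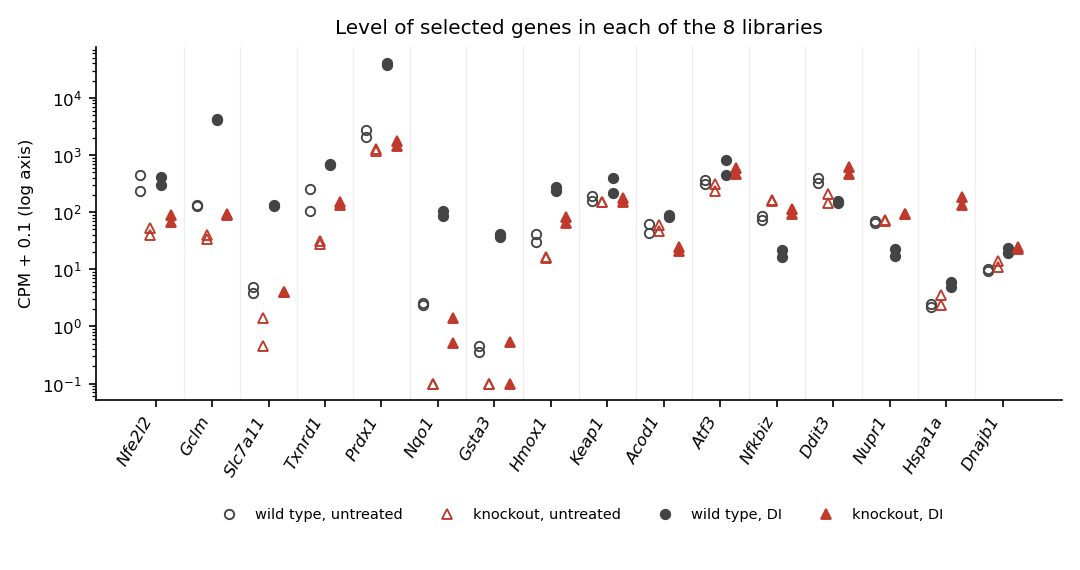
CPM plus 0.1 on a log axis for 16 genes in each of the 8 libraries, with circles for wild type, triangles for knockout, open symbols for untreated and filled symbols for DI. For Gclm, Slc7a11, Prdx1, Nqo1 and Gsta3 the filled circles stand apart above all other libraries, while for Hspa1a the filled triangles do.

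Some of the largest decreases lay outside these lists. Npy, neuropeptide Y, had 296 and 337 CPM in wild-type cells with DI and 3.63 and 0.304 CPM in knockout cells with DI (-7.34 ± 0.72, edgeR adjusted p = 3.1e-05). It was as low in the untreated knockout, at 1.22 and 0 CPM against 231 and 187 CPM in the untreated wild type. Procr, the receptor of protein C, whose promoter is printed above, had 196 and 221 CPM in the wild type and 2.03 and 2.33 CPM in the knockout (-6.57 ± 0.36, edgeR adjusted p = 5.8e-07). Ednrb, the endothelin receptor type B, went from 294 and 253 CPM to 5.23 and 2.13 CPM (-6.22 ± 0.38). Rnf128, a membrane-bound ubiquitin ligase, was the most abundant of these genes, at 2115 and 1345 CPM against 25.9 and 36.6 CPM (-5.79 ± 0.32, edgeR adjusted p = 5.8e-07). Immune genes were also among them: Il1f9, which encodes IL-36γ, differed by -5.66 ± 0.44, Tarm1, an activating receptor of myeloid cells, by -5.71 ± 0.42, and Serpinb9b, a serine protease inhibitor, by -5.55 ± 0.47. Pdlim4, Layn and Slc16a9 differed by -5.97 ± 0.36, -6.34 ± 0.57 and -6.55 ± 0.62. Dnmt3l, a cofactor of DNA methyltransferases, had 64 and 108 counts in the wild type and 1 and 1 in the knockout, a ratio of counts per library size of 96.8 with a 95% counting interval of 26.4 to 805. The predicted gene A530064D06Rik was among the 3 decreases with the smallest p, at 156 and 134 CPM against 1.71 and 1.62 CPM (-6.43 ± 0.28, edgeR adjusted p = 1.4e-07).

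Measured in CPM rather than fold, the 10 largest decreases were those of Prdx1, Fth1, Lpl, Ftl1, Creg1, Gclm, Psap, Ctsb, Lipa and Lgals3, in this order. Prdx1, the ferritins and Gclm are described above. Ctsb, cathepsin B, differed by -0.67 ± 0.21, and that call was lost in 7 of the 8 fits that left out 1 library. Lpl, lipoprotein lipase, had 14037 and 15613 CPM in the wild type and 6239.5 and 5892 CPM in the knockout (-1.29 ± 0.25, edgeR adjusted p = 0.0041). Creg1, a secreted lysosomal glycoprotein, went from 6831 and 4973 CPM to 589.7 and 649 CPM (-3.25 ± 0.26). Lipa, the acid lipase that frees cholesterol and fatty acids in the lysosome, went from 4701 and 3703 CPM to 777 and 1042 CPM (-2.21 ± 0.26), and Psap, the precursor of the saposins, from 4807 and 4363 CPM to 1043 and 1027 CPM (-2.15 ± 0.22). Lgals3, galectin 3, went from 4464 and 5027 CPM to 1842 and 2586 CPM (-1.10 ± 0.23, edgeR adjusted p = 0.0058), and that call was lost without knockout DI replicate 1 (adjusted p = 0.057). Of 36 tested lysosome and autophagy genes 12 were lower and 2 were higher, with a median of -0.43. The 12 fell to 3 without knockout DI replicate 1, to 6 without knockout DI replicate 2, and to 7 without wild-type DI replicate 1 or either untreated knockout library. The higher members counted 1 without either untreated knockout library, knockout DI replicate 1, or wild-type DI replicate 1 or 2. The member that was higher in each of these was Optn, an autophagy receptor, at 3.61 and 11.1 CPM in the wild type and 32.9 and 35 CPM in the knockout (2.15 ± 0.41).

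Cytosolic heat shock proteins refold or hold damaged proteins. Most calls among them were increases: of 21 tested, 6 were higher in the knockout and 1 was lower, with a median of 0.38. Hspa1a, an inducible HSP70, had 4.71 and 5.87 CPM in wild-type cells with DI and 132 and 181 CPM in knockout cells with DI. Hspa1b, its neighbour with an almost identical sequence, had 9.9 and 8.29 CPM and 289 and 203 CPM. The differences were 4.87 ± 0.30 and 4.76 ± 0.30 (edgeR adjusted p = 9e-07 and 1e-06), the smallest p-values among all increases. Both rose, although the counting may have split reads of these near-identical copies in an unknown way. Hspa8, the constitutive HSC70, had 1649 and 1546 CPM in the wild type and 3422 and 5589 CPM in the knockout (1.50 ± 0.25, edgeR adjusted p = 0.0017). Hspa4l, a nucleotide exchange factor of the HSP110 family, differed by 1.39 ± 0.22. Dnaja1, an HSP40 co-chaperone, and Bag3, a co-chaperone of HSP70, were called at 1.71 and 1.15, and both calls were lost without knockout DI replicate 1 or wild-type DI replicate 1. Other members of the list were not called, among them the HSP40 gene Dnajb1 at 0.14 and the HSP90 gene Hsp90aa1 at 0.04. The single lower member, Dnajb4, was not called without knockout DI replicate 1 or wild-type DI replicate 1, and a second member was called lower without knockout DI replicate 2. A heat shock element, searched on both strands as the units GAA, TTC and GAA in this order with a pair of free bases between neighbours, occurred in 0.595% of the 8905 promoters. It was found for 4 of the 17 members of the list with a promoter, which were Chordc1, Hspd1, Hspe1 and Hsph1, none of them called. Hspa1a and Hspa1b had no match. Only these letters within 300 bases were searched, so an element that departs from them or lies elsewhere would be missed.

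The integrated stress response is the program of ATF4 and its partners that starts when eIF2α is phosphorylated, as happens under amino acid shortage or unfolded protein. Of 35 tested genes of the program, 14 were higher in the knockout and 4 were lower, with a median of 0.58. Nupr1, a stress-induced nuclear protein, had 22.5 and 16.8 CPM in wild-type cells with DI and 91.9 and 91.7 CPM in knockout cells with DI (2.23 ± 0.23, edgeR adjusted p = 5.1e-05). Ddit3, which encodes CHOP, had 146 and 159 CPM and 623 and 458 CPM (1.83 ± 0.26, edgeR adjusted p = 0.00052). The pseudokinase gene Trib3 had 24.5 and 20.8 CPM and 61.2 and 67.2 CPM (1.51 ± 0.22). The higher members also included the aminoacyl-tRNA synthetase genes Sars at 1.93 and Cars at 1.34, and Asns, asparagine synthetase, at 1.16. The other direction was taken by Slc7a11 and by the glycine transporter gene Slc6a9, which had 52 and 70 counts in the wild type and 0 and 1 in the knockout. The ratio of Slc6a9 counts per library size was 137, with a 95% counting interval of 24.2 to 5466. Gdf15, a secreted stress cytokine, was also lower, from 284 and 311 CPM to 93.1 and 119.9 CPM (-1.48 ± 0.25). Atf3, one of the genes the series is about, had 444 and 808 CPM in the wild type and 586 and 456 CPM in the knockout, and these ranges overlapped (-0.26 ± 0.29, edgeR adjusted p = 0.54). Atf4 itself was not called, at 0.53.

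The C/EBP-ATF response element, through which ATF4 and CHOP act, was searched as TGATGNAA on both strands. It occurred in 2.95% of the 8905 promoters and in 9 of the 30 members of the list with a promoter. Of the 9, Aars, Asns, Chac1, Nupr1 and Trib3 were higher in the knockout, Slc7a11 was lower, and Atf3, Gars and Vldlr were not called. The Aars call was lost in 6 of the 8 fits that each left out 1 library (all but those without an untreated wild-type library), and the Chac1 call without wild-type DI replicate 1. Nupr1 and Slc7a11 are shown because the same letters stand before genes that differed in opposite directions. Nupr1 is at chr7:126625471-126625720 on the minus strand with a match on the opposite strand 110 bases before the start. Slc7a11 is at chr3:50443614-50443863 on the minus strand with matches 66 and 47 bases before the start, the first on its own strand and the second on the other. The sequences are from the same RefSeq table and written in the same way as those above.
Nupr1: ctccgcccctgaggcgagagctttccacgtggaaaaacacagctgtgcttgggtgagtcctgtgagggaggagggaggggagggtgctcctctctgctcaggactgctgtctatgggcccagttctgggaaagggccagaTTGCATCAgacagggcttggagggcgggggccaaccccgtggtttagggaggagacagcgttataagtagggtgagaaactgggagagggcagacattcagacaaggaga
Slc7a11: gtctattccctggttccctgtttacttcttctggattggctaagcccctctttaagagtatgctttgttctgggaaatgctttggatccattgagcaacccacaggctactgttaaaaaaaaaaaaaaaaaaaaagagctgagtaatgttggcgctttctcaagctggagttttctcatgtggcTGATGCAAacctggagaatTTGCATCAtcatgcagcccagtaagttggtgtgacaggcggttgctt
In these windows TGACNNNGC was found in neither gene.

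Chaperones of the endoplasmic reticulum fold secreted and membrane proteins. Of 19 tested, 5 were lower and 1 was higher, with a median of -0.14. The 5 fell to 3 without either untreated knockout library or knockout DI replicate 1, and to 2 without knockout DI replicate 2, wild-type DI replicate 1 or wild-type DI replicate 2. Manf, a secreted stress protein of that compartment, had 133 and 112 CPM in the wild type and 52 and 49.3 CPM in the knockout (-1.27 ± 0.21, edgeR adjusted p = 0.0015). Herpud1, which takes part in degradation of misfolded proteins, had 11.3 and 8.76 CPM and 34.3 and 29.2 CPM (1.67 ± 0.25, edgeR adjusted p = 0.00084). Without knockout DI replicate 2 another member was also called higher. Hsp90b1 and Sel1l were not called, at 0.58 and 0.53. Of 38 proteasome subunits 3 were higher and 2 were lower, with a median of -0.07, beside the 11.4% and 9.74% of all genes. The higher count was 1 without either untreated knockout library, knockout DI replicate 1, or wild-type DI replicate 1 or 2, and the lower count was 1 without knockout DI replicate 1 or wild-type DI replicate 1. Psmb5, a catalytic subunit, had 35.5 and 40.7 CPM in the wild type and 11.7 and 15.2 CPM in the knockout (-1.50 ± 0.24, edgeR adjusted p = 0.0011).

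Inflammatory cytokines and NF-κB genes were called in both directions. Of 40 tested, 15 were higher in the knockout and 6 were lower, with a median of 0.38. Nfkbiz, which encodes the coactivator IκBζ named in the series title, had 21.8 and 16.3 CPM in wild-type cells with DI and 93.8 and 115 CPM in knockout cells with DI. The difference was 2.46 ± 0.25 (edgeR adjusted p = 3.9e-05), with both knockout libraries above both wild-type libraries. In untreated cells the same gene had 73.9 and 84.3 CPM in the wild type and 166 and 158 CPM in the knockout, so the DI libraries of each genotype were lower than its untreated ones. The higher members also included the cytokine gene Il12b at 2.75, the chemokine genes Ccl7 at 1.51 and Ccl4 at 1.40, and the NF-κB subunit Rel at 1.50. Acod1, the gene of the enzyme that makes itaconate, was lower in the knockout, at 24.7 and 21 CPM against 89.1 and 83.1 CPM (-1.92 ± 0.25, edgeR adjusted p = 0.00033). Cxcl3, a neutrophil attractant, went from 44.1 and 32.8 CPM to 5.55 and 2.94 CPM (-3.18 ± 0.38, edgeR adjusted p = 0.00016). Saa3, an acute phase protein, and Tnfaip3, which encodes the NF-κB inhibitor A20, were lower at -1.66 and -2.38. Nfkb1 was not called, at 0.52. Il6 had between 1 and 5 counts in the DI libraries and was not tested.

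Interferon-stimulated genes encode antiviral proteins. Of 51 tested, 8 were higher and 1 was lower, with a median of 0.20, beside 11.4% higher and 9.74% lower among all genes. Without knockout DI replicate 1 or wild-type DI replicate 1, 3 were higher, and without knockout DI replicate 2 or wild-type DI replicate 2, 5 were. The lower count was 0 without knockout untreated replicate 2, knockout DI replicate 1, or wild-type DI replicate 1 or 2, and 2 without knockout DI replicate 2. Iigp1, an immunity-related GTPase, had 34.7 and 32.6 CPM in the wild type and 67.8 and 64 CPM in the knockout (0.97 ± 0.22, edgeR adjusted p = 0.0084). Zbp1 and Oas3 were not called, at -0.67 and -0.58. Members of the IFIT, OAS and GBP families have close copies, and the division of their reads is uncertain.

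Genes of macrophage identity were divided. Of 29 tested, 9 were lower and 5 were higher, with a median of -0.33, and without knockout DI replicate 1 the lower count was 5. Clec4n, which encodes the fungal lectin receptor dectin 2, had 239 and 236 CPM in the wild type and 9.5 and 9.02 CPM in the knockout (-4.68 ± 0.26, edgeR adjusted p = 5.8e-07). Cd36, a scavenger receptor for oxidized lipoproteins, had 1992 and 2601 CPM and 601 and 826 CPM (-1.69 ± 0.28, edgeR adjusted p = 0.0015). The opposite direction was seen for Cd14, the coreceptor for lipopolysaccharide, at 30.3 and 32.1 CPM in the wild type and 106 and 136 CPM in the knockout (1.95 ± 0.23, edgeR adjusted p = 0.00014). Cx3cr1, the fractalkine receptor, had 0.314 and 1.86 CPM and 7.04 and 10.5 CPM (2.83 ± 0.46), both below the untreated levels of 14.2 and 14.3 CPM and 25.7 and 27.5 CPM. The summed level of the 30 macrophage markers was 19194 and 19187 CPM in the wild type and 14058 and 15652 CPM in the knockout.

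Antigen presentation genes were called in both directions. The class II beta chain gene H2-Ab1 was lower in the knockout, at 18.8 and 24.5 CPM against 62.8 and 63.1 CPM. Its alpha chain partner H2-Aa had 25.3 and 31.6 CPM against 74.9 and 89.9 CPM. Their differences were -1.54 ± 0.24 and -1.53 ± 0.23 (edgeR adjusted p = 0.00093 and 0.00088). The costimulatory ligands of T cells were higher: Cd86 had 10.5 and 7.17 CPM in the wild type and 39.4 and 43.3 CPM in the knockout (2.24 ± 0.25, edgeR adjusted p = 0.0001), and Cd80 had 6.91 and 8.2 CPM and 17.3 and 19 CPM (1.26 ± 0.26, edgeR adjusted p = 0.0056). In all, 4 of 9 tested members were lower and 2 were higher, with a median of -0.88. H2-DMa, part of the complex that loads peptides, was not called at -0.47.

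Glycolysis, which breaks down glucose in the cytosol, was lower in 9 of 24 tested genes and higher in 1, with a median of -0.74. Slc2a1, the glucose transporter GLUT1, had 119.5 and 122 CPM in the wild type and 25.6 and 30.2 CPM in the knockout (-2.11 ± 0.22, edgeR adjusted p = 5.7e-05). Pkm, pyruvate kinase, had 1044 and 999 CPM and 209.8 and 262 CPM (-2.11 ± 0.22, edgeR adjusted p = 5.7e-05). Hk3, a hexokinase, and Pgam1, a phosphoglycerate mutase, differed by -1.63 ± 0.23 and -1.51 ± 0.21. The single higher member was Pfkp, a phosphofructokinase, at 0.87, and its call was lost without knockout DI replicate 2 or either wild-type DI library. No member was called higher without knockout DI replicate 2 or wild-type DI replicate 1. Ldha, lactate dehydrogenase A, was not called at -0.61. In the tricarboxylic acid cycle 5 of 20 were lower and none was higher, with a median of -0.47. The lower count was 3 without wild-type DI replicate 2 and 2 without knockout DI replicate 2 or wild-type DI replicate 1, and 1 member was called higher without knockout DI replicate 2. After the trend with A-rich sequence was removed, 1 member was lower. Cs, the citrate synthase that opens the cycle, was at -0.91, with its call lost without knockout DI replicate 2 and after removal of that trend. Transcripts of the mitochondrial genome were lower in 5 of 13, with a median of -0.47, and in 2 without knockout DI replicate 1. The complex I subunit gene mt-Nd1 had 1574 and 1951 CPM in the wild type and 462 and 813 CPM in the knockout (-1.47 ± 0.27, edgeR adjusted p = 0.0031), and mt-Nd3 of the same complex differed by -1.54 ± 0.32.

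Of 23 tested genes for sterol synthesis and uptake, 3 were lower and none was higher, with a median of -0.25. Of 11 tested genes for sterol efflux and LXR targets 4 were lower and none was higher, with a median of -0.38, beside 9.74% lower among all genes. Mylip, a ubiquitin ligase induced by LXR, had 1429 and 1102 CPM in the wild type and 357 and 364 CPM in the knockout (-1.81 ± 0.22, edgeR adjusted p = 0.0002). The cholesterol exporter gene Abca1 was not called, at 0.64, but was called higher without knockout DI replicate 2, at 1.01 (edgeR adjusted p = 0.028). Targets of p53 were lower in 4 of 18 and higher in 2, with a median of -0.31, and the higher share was near the 11.4% of all genes. The lower count was 2 without wild-type DI replicate 1, and the higher count was 1 without knockout DI replicate 1 or 2 or wild-type DI replicate 2 and 4 after the A-rich trend was removed. Fas, the death receptor, was low in both genotypes, at 4.08 and 3.73 CPM and 0.854 and 0.912 CPM (-2.12 ± 0.46).

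Genes of DNA replication and mitosis were higher in the knockout in 12 of 38 tested and lower in 1, with a median of 0.87, the highest median of the lists with at least 5 tested members. Without knockout DI replicate 1, 7 were higher. Ccnd1, cyclin D1, had 1443 and 821 CPM in the wild type and 3885 and 3463 CPM in the knockout (1.70 ± 0.27, edgeR adjusted p = 0.0011). Ccnd2, cyclin D2, was not on the list and was among the 3 increases with the smallest p, at 103 and 83 CPM against 788 and 615 CPM (2.92 ± 0.24, edgeR adjusted p = 7.8e-06). Cenpe, a mitotic kinesin, had 10.5 and 14.9 CPM in the wild type and 51.6 and 43.1 CPM in the knockout (1.88 ± 0.28). Rrm1, a subunit of ribonucleotide reductase, had 8.64 and 7.55 CPM and 30.1 and 27.4 CPM (1.83 ± 0.30). The member that was lower was Pcna, the sliding clamp of DNA polymerase, at 86.1 and 96.4 CPM against 35.9 and 39.4 CPM (-1.28 ± 0.22, edgeR adjusted p = 0.002). Of other genes linked to mitosis, Cdk1 at -0.31 and Ccnb1 at -0.07 were not called, while Top2a was called at 1.95. After removal of the trend with A-rich sequence (below) 12 members were higher and 1 was lower. Whether the cultures divided was not measured.

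**Figure D3:**
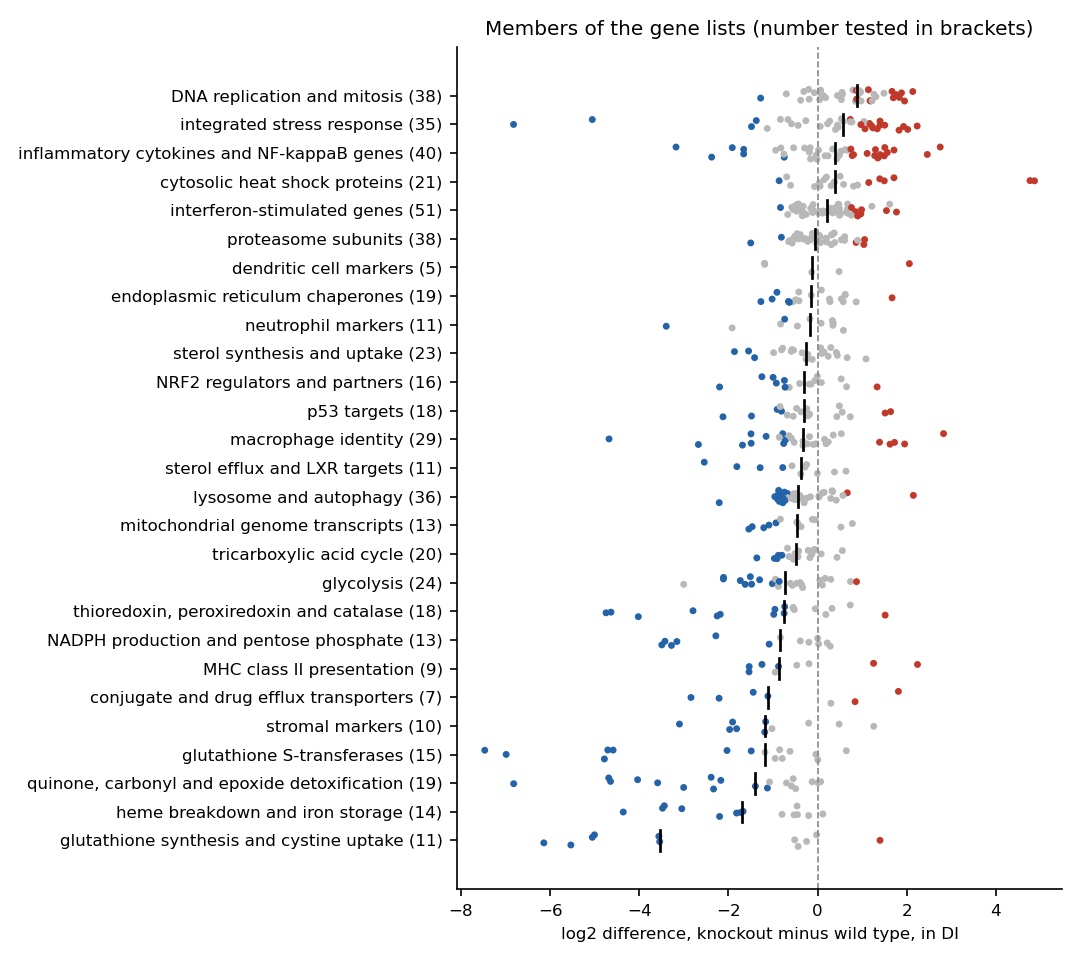
Log2 difference between knockout and wild type in DI for each tested member of the gene lists with at least 5 tested members, 1 point per gene, in red where called higher, blue where called lower and grey where not called. The black bar is the list's median and the dashed line the median of all tested genes. Glutathione synthesis lies lowest at a median of -3.54 and DNA replication highest at 0.87.

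The increases outside the lists were led by genes with low levels in DI-exposed wild-type cells. St3gal6, a sialyltransferase, had 1.57 and 0.559 CPM in the wild type and 28.2 and 15.9 CPM in the knockout (4.49 ± 0.43, edgeR adjusted p = 2.7e-05). Slc39a8, a transporter of zinc and manganese, had 5.03 and 4.94 CPM and 62.7 and 38.4 CPM (3.34 ± 0.29, edgeR adjusted p = 1.3e-05). Plagl1, a zinc finger factor, had 2.04 and 1.96 CPM and 23.6 and 27.8 CPM (3.68 ± 0.40), and its untreated levels of 2.27 and 1.36 CPM and 3.15 and 1.19 CPM were low in both genotypes. Lipg, endothelial lipase, had 1.57 and 0.466 CPM in the wild type and 12.9 and 9.63 CPM in the knockout under DI (3.61 ± 0.46) and 13.8 and 22.2 CPM and 54.9 and 45.2 CPM in untreated cells. Ch25h, which makes 25-hydroxycholesterol, and Tnfsf15, a cytokine of the TNF family, differed by 3.19 ± 0.51 and 3.23 ± 0.33. Pde3b, a phosphodiesterase, differed by 2.93 ± 0.26, and Fhad1, Zmynd15, Zfp971 and Utp14b by 3.68 ± 0.32, 3.57 ± 0.40, 3.77 ± 0.66 and 2.98 ± 0.42. Prm1, protamine 1, known from sperm, had 85 and 119 counts in knockout cells and 3 and 0 in wild-type cells with DI, a ratio of counts per library size of 60.4 with a 95% counting interval of 20.4 to 295. Its level in the untreated knockout was 9.97 and 9.88 CPM.

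Among abundant transcripts the increases in CPM were led by Ccnd1 and Hspa8. Maf, a transcription factor of mature macrophages, had 673 and 412 CPM in the wild type and 1258 and 2086 CPM in the knockout (1.62 ± 0.30, edgeR adjusted p = 0.0031), below the 2542 and 2778 CPM and 4105 and 3104 CPM of the untreated genotypes. Hmga2, a chromatin protein, had 429 and 408 CPM and 1309 and 1757 CPM (1.87 ± 0.25). Zfp36l1, a protein that destabilizes mRNA, had 154 and 121 CPM and 1153 and 739 CPM (2.78 ± 0.27, edgeR adjusted p = 3.1e-05). Eea1, a tether of early endosomes, and Ankrd11, a chromatin regulator, differed by 1.49 ± 0.20 and 1.23 ± 0.24. Both have coding stretches with at least 12 A in 15 bases, a property taken up below.

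Fewer genes were called without DI. The untreated libraries are not among the 4 contrasted with DI, but both comparisons share 1 estimate of scatter from all 8. In untreated knockout against untreated wild-type cells, 67 genes were called (0.605%), 9 higher (0.0812%) and 58 lower (0.524%). The counts dropped to 1 higher and 10 lower when knockout untreated replicate 1 was left out, to 3 and 13 for knockout untreated replicate 2, and to 2 and 24 for wild-type untreated replicate 1. With wild-type untreated replicate 2 left out 3 were higher, and with either wild-type DI library left out 16 were. The standard deviation of the log2 difference over all tested genes was 0.99 with DI and 0.60 without. Of the 67 genes, 55 were also called in the same direction with DI, 8 higher and 47 lower, which is 82.1% of the untreated list and 2.35% of the DI list. Of the 67 untreated calls, 9 were made in every fit that left out 1 library. Across all tested genes the log2 differences with and without DI correlated weakly, at a Pearson r of 0.238 and a Spearman rho of 0.021. Gclm was among the shared genes, at 129.7 and 134 CPM in untreated wild-type cells and 33.4 and 39.9 CPM in untreated knockout cells (-1.84 ± 0.22, edgeR adjusted p = 0.0019), a call that was lost without knockout untreated replicate 1. Nqo1 had 2.45 and 2.26 CPM in the untreated wild type and no count in the untreated knockout. Txnrd1, thioredoxin reductase, had 106 and 257 CPM and 27.3 and 30.6 CPM in untreated cells, and 675 and 688 CPM and 135 and 151 CPM in DI. Slc40a1 differed by -3.72 without DI and by -4.36 with it, and Npy by -8.71 and -7.34. The 7 genes called in opposite directions were Vps39, Sec63, Vti1b, Cstf2, Anp32a, Gtf2a1 and Ccdc47, and those called in untreated cells alone were Gadd45a, Pou5f2, Rhov, Timp3 and a predicted gene.

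The change of the genotype difference with DI was tested by an interaction term over all 8 libraries. It was called for 836 genes (7.55%), 549 with a higher value in DI (4.96%) and 287 with a lower one (2.59%). These counts changed with single libraries: they were 137 and 101 without knockout untreated replicate 1, 162 and 108 when knockout untreated replicate 2 was left out, and 246 and 119 when wild-type untreated replicate 2 was. Leaving out wild-type untreated replicate 1 gave 441 and 190, leaving out knockout DI replicate 1 gave 308 and 143, and leaving out wild-type DI replicate 1 gave 265 and 186. Prdx1 had 2768 and 2068 CPM in the untreated wild type and 1175 and 1249 CPM in the untreated knockout, and its genotype difference with DI minus that without was -3.64 ± 0.33 (edgeR adjusted p = 0.00023). For Gclm this term was -3.69 ± 0.30 (edgeR adjusted p = 0.00022). Hspa1a had 2.1 and 2.33 CPM and 3.5 and 2.28 CPM in untreated wild-type and knockout cells, and its term was 4.53 ± 0.44 (edgeR adjusted p = 0.00028). The term for Nfkbiz was 1.43 ± 0.33 (edgeR adjusted p = 0.023), on top of an untreated difference of 1.03 ± 0.23 that did not pass the test (edgeR adjusted p = 0.071). The Nfkbiz term was not called without either untreated knockout library, wild-type untreated replicate 2 or wild-type DI replicate 2, where its adjusted p ran from 0.062 to 0.099. Ddit3 had the opposite order without DI, at 390.2 and 321 CPM in the wild type and 206 and 143 CPM in the knockout (-1.02, edgeR adjusted p = 0.11), and its term was 2.85 ± 0.36 (edgeR adjusted p = 0.0014). Nupr1, a gene of the same stress program, had 69.7 and 63.9 CPM and 73.5 and 70.7 CPM without DI and a term of 2.12.

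**Figure D4:**
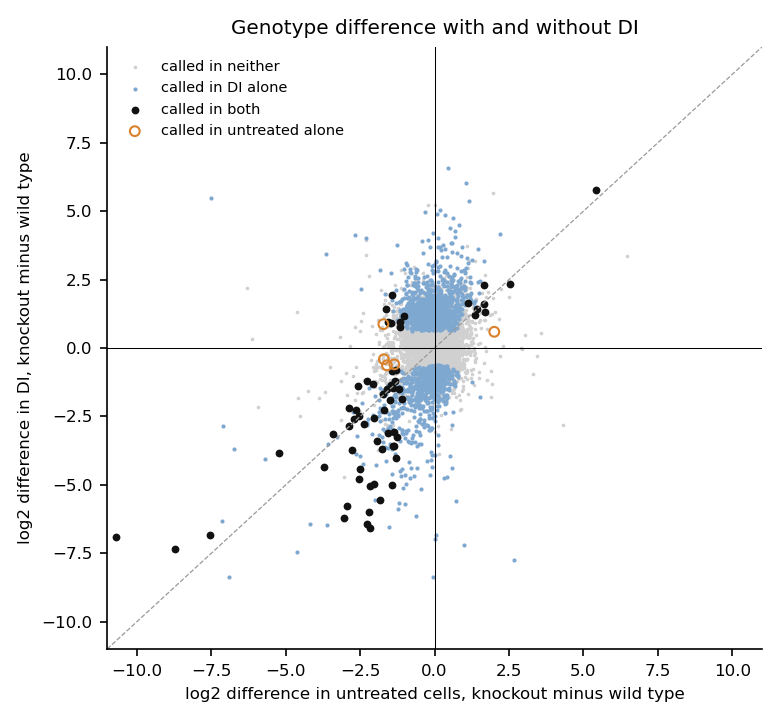
Log2 difference between knockout and wild type in DI (vertical axis) against the same difference in untreated cells (horizontal axis), 1 point per tested gene, coloured by the comparison in which the gene was called, with the dashed line marking equal values. Genes called with DI alone spread along the vertical axis, and the 55 genes called in both in the same direction lie mostly at negative values on both axes.

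The calls varied with the sequence of the genes. The libraries were primed with an oligo-dT of 15 T, and genes were classed by the largest count of A that a stretch of 15 neighbouring coding bases held. With at most 7 A, 3.23% of genes were higher in the knockout under DI and 16.9% were lower. With 10 A these shares were 10.4% and 9.05%, and with 13 to 15 A they were 26.6% and 2.80%. The median log2 difference ran from -0.31 in the class with fewest A to 0.47 in the class with most, and in untreated cells from 0.08 to -0.09. After the trend was removed from the counts, 995 genes were higher and 873 lower, and 1603 of the 2345 genes were called in both fits. The lists of glutathione genes, transferases and heme and iron genes kept their numbers of lower members at 6, 7 and 8, the heat shock list had 7 higher, the stress response list 15 higher and 4 lower, and the inflammatory list 16 higher and 5 lower. The interferon list dropped from 8 higher and 1 lower to 3 and 0, the tricarboxylic acid cycle list from 5 lower to 1, the endoplasmic reticulum list from 5 lower to 3 and the NRF2 regulator list from 6 lower to 3. Proteasome subunits and neutrophil markers each went from 2 lower to 1, efflux transporters and lysosome genes each from 2 higher to 1, endoplasmic reticulum chaperones from 1 higher to 2 and p53 targets from 2 higher to 4. The part of priming within coding sequence in the genotype differences was not tested.

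**Figure D5:**
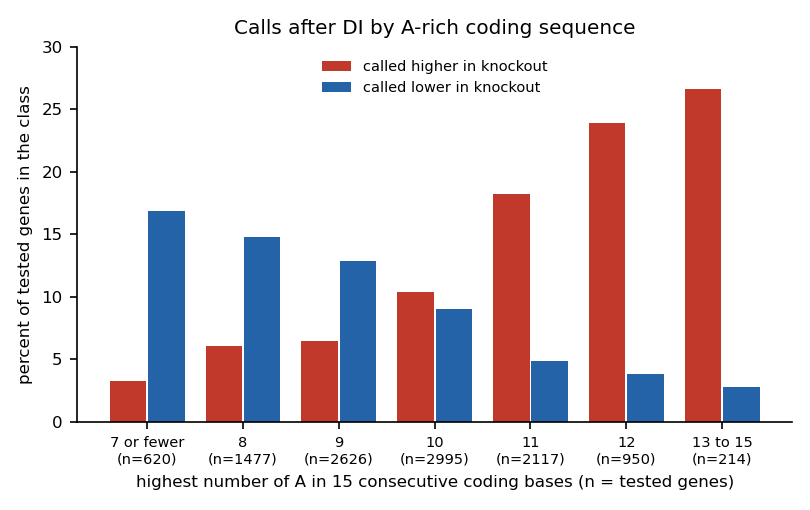
Percent of tested genes called higher or lower in the knockout under DI (vertical axis) in classes of the highest number of A in 15 consecutive coding bases (horizontal axis, with the number of tested genes per class). The share called higher rises from 3.23% to 26.6% across the classes and the share called lower falls from 16.9% to 2.80%.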

How the data were processed

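Gene-level read counts of 8 bulk RNA libraries were used as the authors deposited them, as raw counts with no normalization. Per the labels' protocols, RNA was primed with an oligo-dT of 15 T in a strand-specific 3′ method with 12 PCR cycles and no molecular identifiers, so reads lie near transcript ends and p-values do not separate PCR copies from molecules. The submitters' processing notes name STAR, HTSeq, DESeq2 and the build mm10; versions and the annotation release are not given in the sources used here. Of 22165 rows, 21745 matched an annotated gene, and 6866 rows had no count in any library. Rows without an annotated gene held 0.129% of the counts and were filtered, scaled and tested like the others.

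Counts were filtered with edgeR's filterByExpr at a minimum count of 10, which left 11079 genes, scaled by TMM and fitted with edgeR 4.0.16 (R 4.3.3) by the quasi-likelihood test over all 4 groups of 2 libraries, with a call at a Benjamini-Hochberg adjusted p under 0.05. The script was tested on simulated counts with known changes. Alternatives were RLE and upper-quartile scaling, DESeq2 1.42.0, no filter, the DI libraries alone, a replicate block, removal of a trend with A-rich coding sequence, and leaving out each library. Total counts ranged from 5554288 to 15680671 per library. Folds against 1 to 3 counts carry a 95% counting interval.

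Results for some genes are not reported here. The comparison and the gene lists were chosen with earlier results of these data known. Named were the 15 largest called changes per direction with at least 10 CPM, proper symbols and no overlap, the 3 smallest p and the 10 largest CPM differences per direction, up to 4 called members per list by p, uncalled members with the smallest p, and genes the series is about. Of the other genes named, Abcb1b, Asns, Bag3, Cars, Ccl4, Ccl7, Chac1, Dnaja1, Il12b, Pfkp, Rel, Sars, Tnfaip3, Top2a and Trib3 (called) and Atf4, Ccnb1, Cdk1, Dnajb1 and Hsp90aa1 (not called) were chosen after their values were seen.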

Additional observations from a re-analysis of the deposited data

Results flagged for a closer look

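For the genes below the genotype difference with DI differed from that without it, by edgeR's interaction term at an adjusted p under 0.05, and each value is the log2 difference between knockout and wild type in DI minus the same difference in untreated cells. Without knockout untreated replicate 1 the interaction was called for 137 genes with a higher value in DI and 101 with a lower one, against 549 and 287 with all libraries. Of the 80 genes, 44 were called in each of the 8 fits that left out 1 library, and no value changed sign in any. The genes not called in at least 1 of those fits were Slc6a9, Ggt5, Slc16a9, Tarm1, Il1f9, Cxcl3, Ednrb, Slc7a11, Fas, Gstm1, Abcc4, Psap, Gsto1, Slc2a1, Abcc3, Manf, Fth1, mt-Co3, Psmb5, Hk3, Cd86, Hmga2, Hspa4l, Nfe2l1, Nfkbiz, Psmd12, Hspa8, Ankrd11, Ccnd1, Rrm1, Cenpe, Tnfsf15, Lipg, Ifih1, Slfn2 and Optn.

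Genes of glutathione synthesis, cystine uptake and conjugation included Ggt5 at -5.51, Gclm at -3.69, Gss at -3.65, Gclc at -3.58, Slc7a11 at -2.88, Gstm1 at -2.26, Gsto1 at -1.57 and Mgst1 at -3.15. Genes of peroxide and thiol reduction included Cat at -3.91, Prdx1 at -3.64, Srxn1 at -2.72 and Prdx6 at -2.54. Genes of carbonyl and quinone detoxification and of conjugate export included Ptgr1 at -4.49, Cbr3 at -3.99, Esd at -2.2, Abcc4 at -2.09 and Abcc3 at -1.39. Genes of NADPH production and glycolysis included Taldo1 at -3.04, Pgd at -2.68, G6pdx at -2.3, Idh1 at -2, Pkm at -1.73, Pgam1 at -1.66, Slc2a1 at -1.48 and Hk3 at -1.15. Genes of heme and iron handling included Slc48a1 at -2.77, Blvrb at -2.69, Slc11a1 at -2.1, Ftl1 at -1.72 and Fth1 at -1.23. Immune and receptor genes with a lower value in DI included Tarm1 at -4.71, Il1f9 at -4.45, Procr at -4.41, Clec4n at -3.54, Cxcl3 at -3.28, Ednrb at -3.18, Fas at -2.29 and Acod1 at -1.96. Chaperone and stress response genes with a higher value in DI included Hspa1a at 4.53, Hspa1b at 4.14, Hspa8 at 1.62, Hspa4l at 1.39, Ddit3 at 2.85, Nupr1 at 2.12 and Nfe2l1 at 1.42. Cell cycle and replication genes included Ccnd1 at 1.8, Ccnd2 at 1.87, Rrm1 at 1.93 and Cenpe at 1.98. Immune genes with a higher value in DI included Nfkbiz at 1.43, Cd86 at 1.23, Tnfsf15 at 1.98, Ifih1 at 2.46 and Slfn2 at 3.12. 

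Other genes with a lower value in DI were Slc6a9 at -6.86, Slc16a9 at -5.03, A530064D06Rik at -4.15, Pdlim4 at -3.77, Rnf128 at -2.85, Creg1 at -2, Psap at -1.62 and Manf at -1.34. Further down were mt-Co3 at -1.2 and Psmb5 at -1.19. Other genes with a higher value in DI were Hmga2 at 1.28, Psmd12 at 1.5, Ankrd11 at 1.78, Eea1 at 1.91, Lipg at 2.15, Pde3b at 2.18, Osbpl8 at 2.41, Zfp36l1 at 2.47 and Fhad1 at 2.78. The rest were Slc39a8 at 2.91, Utp14b at 3.07, Optn at 3.17, Zmynd15 at 3.34, Plagl1 at 3.49, St3gal6 at 3.66 and Zfp971 at 5.04.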

How the results depend on the processing

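No called difference between knockout and wild type in DI reversed among the genes shared with any alternative, and of 136 named genes called, 108 were called in every fit that left out 1 library. Leaving out 1 library gave 654 to 1203 genes higher and 520 to 1021 lower in DI, 1 to 16 and 10 to 65 in untreated cells, and 137 to 609 and 101 to 324 for the interaction. With the 4 DI libraries alone 888 were higher and 733 lower in DI, and 67.9% of the calls of the main fit were made. There 4 lysosome and autophagy genes were lower, 2 NRF2 regulators, and 3 each of endoplasmic reticulum chaperones, tricarboxylic acid cycle genes and mitochondrial transcripts. Proteasome subunits were 1 higher and 1 lower, and neutrophil and erythroid and megakaryocyte markers 1 lower each. Efflux transporters and lysosome genes were 1 higher each, and no heat shock or interferon list member was lower. For the untreated comparison upper-quartile scaling gave 14 higher, DESeq2 36 higher and 155 lower, and no filter 72 and 325. For the interaction upper-quartile scaling gave 438 lower, and no filter 1106 higher and 491 lower. The cause was not tested. The replicate numbers are shared between groups, but the labels state no pairing, and the replicate deviations correlated at -0.08 to 0.156 between groups. With a replicate block the counts were 1261 higher and 1048 lower in DI, 9 and 58 in untreated cells, and 564 and 281 for the interaction. With 2 libraries per group, a difference that missed the threshold is not shown to be absent.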

Other observations

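Several genes were lower in the knockout both with and without DI and, other than Mmp8, belong to none of the lists. Those given here were chosen after their values were seen, from the 55 genes called in the same direction in both conditions, and each kept its call with DI in every fit that left out 1 library. Of their untreated calls, those of Pla2g7 and Tnfaip2 held in every such fit. The untreated call was lost without knockout untreated replicate 1 for Clec4d, without knockout untreated replicate 2 for Plpp3, without either of these for Mmp12 and Mmp8, and without any one of the 4 untreated libraries for Clec7a and Ninj1. Pla2g7, the phospholipase that inactivates platelet-activating factor, had 538 and 557 CPM in the wild type with DI and 42.7 and 39.9 CPM in the knockout with DI (-3.73 ± 0.24, edgeR adjusted p = 1e-06). Without DI it had 259 and 205 CPM and 32.5 and 35.1 CPM (-2.78 ± 0.23, edgeR adjusted p = 0.00023). Tnfaip2, a gene induced by TNF, differed by -2.58 with DI and by -2.71 without. Mmp12, the macrophage elastase, had 2673 and 2113 CPM and 203 and 166 CPM with DI, and 403 and 386 CPM and 111 and 123 CPM without. Its difference was -3.70 ± 0.25 with DI and -1.75 ± 0.23 without. Mmp8, a collagenase that neutrophils also make and that stands on the neutrophil marker list, differed by -3.40 and -1.92. The C-type lectin receptors Clec4d and Clec7a, the latter known as dectin 1, differed by -2.55 and -1.87 with DI and by -2.04 and -1.10 without. Plpp3, a lipid phosphate phosphatase, differed by -4.42 and -2.50, and Ninj1, which ruptures the plasma membrane in lytic death, by -3.12 and -1.58.

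Fewer genes were higher in the knockout in both conditions. Fpr2, a receptor for formylated peptides, had 29.6 and 30.1 CPM in the knockout and 8.17 and 10.5 CPM in the wild type with DI (1.66 ± 0.24, edgeR adjusted p = 0.00059), and 113 and 104 CPM and 44.5 and 54 CPM without DI (1.14, edgeR adjusted p = 0.042). Fgl2, a fibrinogen-like protein of macrophages, had 45.5 and 46.2 CPM and 23.7 and 16.6 CPM with DI, and 672 and 611 CPM and 249.6 and 253 CPM without. Both genes were lower with DI than without in each genotype, and the knockout stood above the wild type each time. Their untreated calls were lost without any one of the 4 untreated libraries. Within 20 Mb of Nfe2l2 on chromosome 2, 18 of 134 tested genes were higher and 6 were lower with DI. That is 17.9% called, against 21.2% of all genes. By direction the shares of all genes were 11.4% higher and 9.74% lower.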
